A study of Mus musculus with 13 samples.

Results

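The genes of the microtubule cytoskeleton and of axonal transport were followed across 13 arrays of mouse brain hemispheres: the tubulins, the microtubule-associated proteins tau and Map2, the stathmins, the kinesin motors and their light chains, dynein, dynactin and the neurofilament chains. Members were chosen by gene symbol alone: all probe sets (groups of short probes that read 1 transcript) annotated to 1 gene whose symbol begins with Tuba, Tubb, Tubg, Kif, Klc, Dync, Dynl, Dctn or Stmn, or is Mapt, Map1a, Map1b, Map2, Nefl, Nefm or Nefh. This gave 87 of the 12422 probe sets of the Affymetrix MG-U74Av2 array that are not controls, covering 62 of 8252 genes. The symbol rule also took Kifap3, the adaptor of the kinesin-2 motor, and Tubgcp3 and Tubgcp4, partners of gamma-tubulin, and found no Map1a probe set. A further 5 probe sets of these families are annotated to several genes and were not used.

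The groups, taken from the sample titles, were untreated wild type mice (3 arrays), wild type mice given the triple treatment (3 arrays), untreated R6/2 mice (4 arrays) and R6/2 mice given the triple treatment (3 arrays). R6/2 is a transgenic model of Huntington's disease in which the human huntingtin promoter drives a fragment of the human gene, its first exon with an expanded CAG repeat, in many tissues. The triple treatment combined tacrine, a cholinesterase inhibitor, at 2.7 mg/kg per day from 5 weeks of age, moclobemide, an inhibitor of monoamine oxidase A, at 10 mg/kg per day, and creatine, an energy buffer, at 1% (w/v) in the mash. The sample descriptions list these drugs for every sample, the untreated ones too. An age at harvest, 8 weeks, is given for 1 untreated wild type sample only. The labels do not say that each array is a separate animal, so the p-values measure the spread between these samples, which may be technical. Values are the deposited signal of each probe set, an intensity in arbitrary units. Differences are log2 changes ± standard error from 1 limma model over all 13 arrays, with p-values adjusted by Benjamini-Hochberg over the 7453 probe sets that passed a filter on low signal. An adjusted p under 0.05 is called a change.

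Microtubules are hollow polymers of alpha- and beta-tubulin that serve as tracks in axons and dendrites. Kinesins carry vesicles, organelles and RNA mostly towards the microtubule plus end, away from the neuronal cell body, and dynein with its cofactor dynactin carries cargo back. Tau and Map2 bind along microtubules in axons and dendrites respectively, stathmins bind free tubulin and promote disassembly, and neurofilaments set the calibre of large axons.

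In untreated mice, 6 members were lower in R6/2 than in wild type brain: the kinesins Kif5a, Kif5c and Kif1a, the tubulins Tuba4a and Tubb4a, and Map2. The stathmin gene Stmn2 and a dynein light chain probe set, Dynll2, were higher. These were 8 of the 64 member probe sets that passed the filter (12.5%), beside 11.9% of all 7453 probe sets tested. The share was near that background. The members split into 6 lower (9.38%, beside 6.41% of all probe sets) and 2 higher (3.12%, beside 5.49%). The median log2 change of the 64 was -0.04, against 0.04 over all probe sets, and 31 of them were above 0. No member passed the threshold for the treatment in either genotype. In a brain extract, fewer cells of a type and less RNA per cell cannot be told apart.

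**Figure D1:**
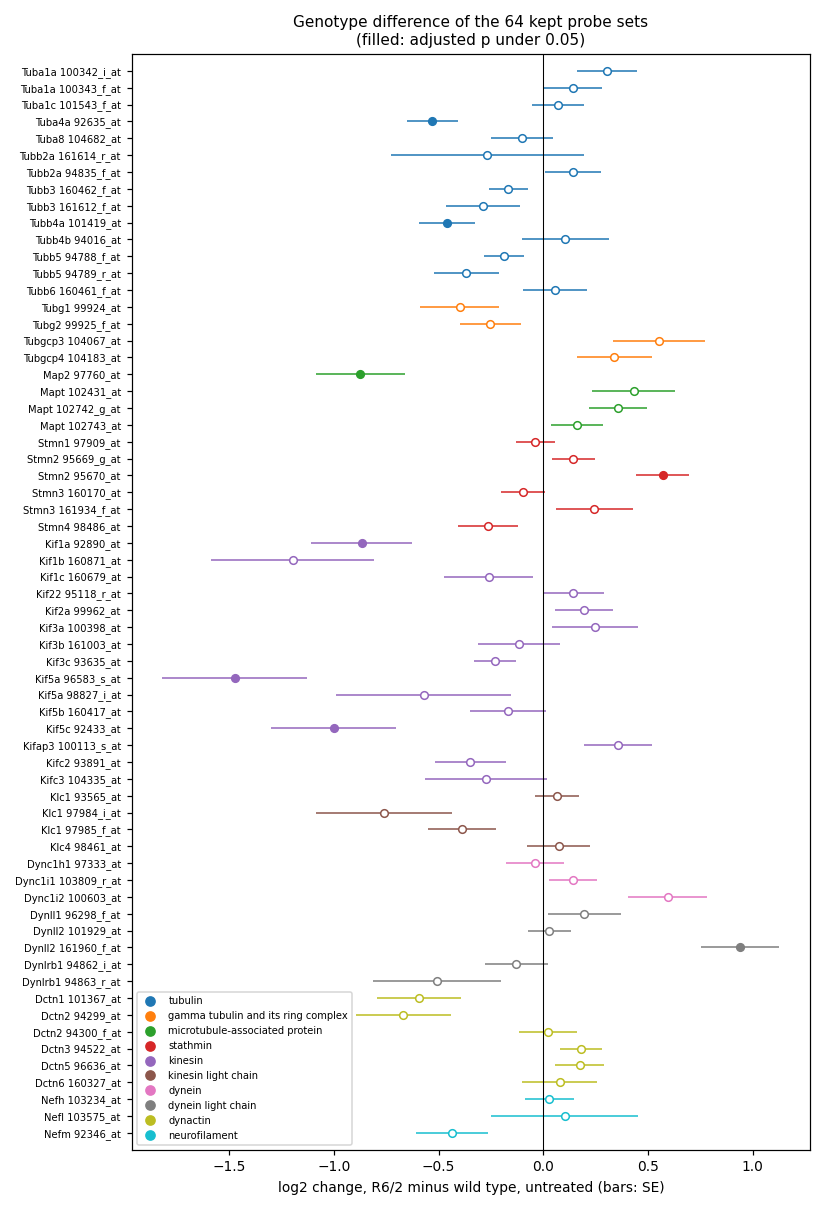
Log2 change (R6/2 minus wild type, untreated mice) with its standard error for each of the 64 member probe sets that passed the filter, grouped by role. Filled points are the 8 with an adjusted p under 0.05; the lowest point is Kif5a at -1.47 and the highest is a Dynll2 probe set at 0.94.

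The sequences before the transcription starts of the members that fell together are shown because they are the regulatory DNA closest to those genes. The 250 bases upstream of the annotated start were read from RefSeq (GRCm38.p6) for the 4 of these genes with 1 entry each, at chr2:49619036-49619285 (plus strand) for Kif5c, chr1:66175079-66175328 (plus strand) for Map2, chr1:75219295-75219544 (minus strand) for Tuba4a and chr17:57087601-57087850 (minus strand) for Tubb4a. Each is written 5′ to 3′ on the gene's strand, and capitals mark matches to the motifs searched.
Kif5c: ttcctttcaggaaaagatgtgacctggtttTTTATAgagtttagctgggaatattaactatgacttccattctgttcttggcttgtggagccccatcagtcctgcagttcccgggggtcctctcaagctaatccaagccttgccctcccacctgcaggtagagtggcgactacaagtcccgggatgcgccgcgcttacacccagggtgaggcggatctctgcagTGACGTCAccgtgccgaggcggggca
Map2: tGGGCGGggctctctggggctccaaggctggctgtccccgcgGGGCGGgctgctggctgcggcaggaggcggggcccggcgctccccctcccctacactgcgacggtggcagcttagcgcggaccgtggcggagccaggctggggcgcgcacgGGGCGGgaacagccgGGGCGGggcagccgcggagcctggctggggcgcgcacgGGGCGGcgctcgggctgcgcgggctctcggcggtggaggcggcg
Tuba4a: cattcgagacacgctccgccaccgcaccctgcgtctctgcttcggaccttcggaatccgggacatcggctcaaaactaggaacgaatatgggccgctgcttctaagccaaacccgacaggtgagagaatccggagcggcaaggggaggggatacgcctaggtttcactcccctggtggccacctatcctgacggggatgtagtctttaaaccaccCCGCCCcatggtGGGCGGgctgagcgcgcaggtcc
Tubb4a: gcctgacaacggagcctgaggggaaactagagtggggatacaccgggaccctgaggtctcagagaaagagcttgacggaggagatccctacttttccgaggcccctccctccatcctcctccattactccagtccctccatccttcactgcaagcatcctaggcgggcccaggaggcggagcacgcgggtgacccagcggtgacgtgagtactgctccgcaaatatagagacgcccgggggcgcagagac
Both strands were searched for 5 motifs, which were the GC box GGGCGG, the CCAAT box, the TATA box in its form TATAAA, the full cyclic AMP response element TGACGTCA and the E-box CACGTG. None of the motifs contains another. The 4 sequences held no motif in common: Map2 had 5 GC boxes and Tuba4a 2, Kif5c had 1 cyclic AMP response element and 1 TATAAA match, and Tubb4a had none of the motifs. Of the 62 member genes, 44 had an entry, with 51 upstream sequences in all. GGGCGG was in 52.9% of these against 32.7% of all 32851 sequences in the table, CCAAT in 39.2% against 33.8%, TATAAA in 11.8% against 12.4%, TGACGTCA in 7.84% against 1.55% and CACGTG in 7.84% against 6.02%. TGACGTCA and CACGTG were each in 4 of the 51 member sequences, and a gene could have more than 1 sequence. All of these are matches of letters and not binding sites.

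Before the genes are taken in turn, 3 features of the arrays bear on them. Array 3 of untreated R6/2 held the lowest or the highest of the 13 values for 38 of the 64 member probe sets (59.4%), beside 44.9% of all probe sets tested, and it was the extreme array for all 8 called members: the lowest for the 6 that fell and the highest for the 2 that rose. Array 1 of untreated wild type was the extreme array for 17 members (26.6%, beside 13.4% of all) and array 1 of treated wild type for 13 (20.3%, beside 11% of all). On arrays 2, 3 and 4 of untreated R6/2, each of the 66 controls equalled 1.2 times (within 0.05) its value on treated R6/2 array 1, treated R6/2 array 3 and untreated R6/2 array 1 respectively, so these 3 arrays have no 3′ to 5′ ratio of their own as a check on RNA integrity. Without untreated R6/2 arrays 2 and 3, all 8 members kept their direction and none passed the threshold, with adjusted p from 0.0699 to 0.305, while 163 probe sets of the 7453 did. With only the arrays compared, again none of the 8 passed, while 243 of the 7453 probe sets did. The number of members called was 8 with all arrays, beside 887 of the 7453 probe sets. Without untreated wild type array 1, 2 or 3 it was 4, 1 and 1, beside 392, 157 and 220 of all. Without untreated R6/2 array 1, 2, 3 or 4 it was 14, 5, 6 and 14, beside 1247, 397, 491 and 1308. Leaving out untreated R6/2 array 3 alone lost the calls of Kif1a and Kif5c. Of the 8, only Dynll2 kept its call in each of the 13 omissions of a single array. The part of array quality in the results was not tested.

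**Figure D2:**
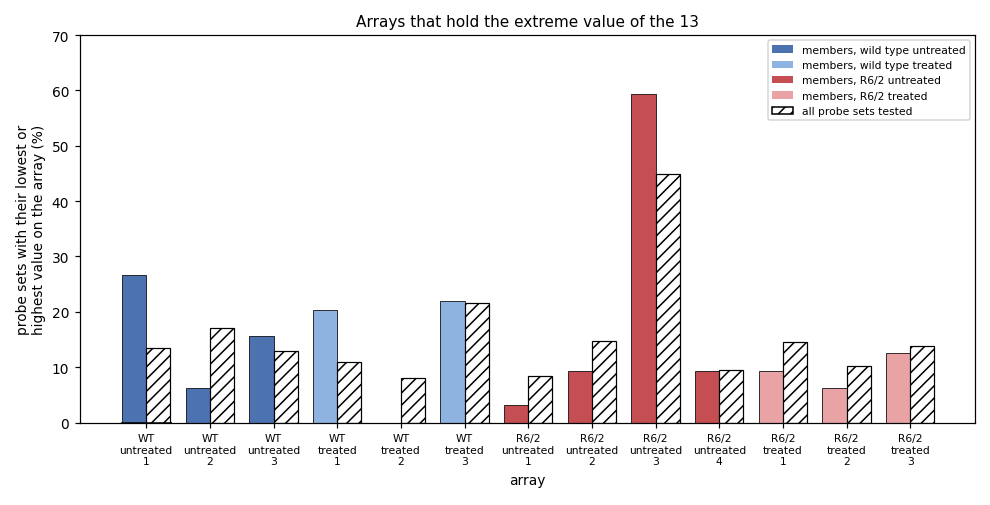
Share (percent) of probe sets whose lowest or highest value of the 13 lies on each array, for the 64 members (coloured) and all 7453 probe sets tested (hatched). Array 3 of untreated R6/2 stands highest for both, at 59.4% and 44.9%, and array 2 of treated wild type held no member's extreme.

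Among the tubulins, the alpha-tubulin gene Tuba4a and the beta-tubulin gene Tubb4a fell in untreated R6/2 brain. Tuba4a (92635_at) read 491, 538 and 547 on the untreated wild type arrays, 655, 555 and 590.1 on the treated wild type arrays, 441, 348, 306 and 371 on the untreated R6/2 arrays and 423, 399 and 424 on the treated R6/2 arrays. All 7 R6/2 arrays lay below all 6 wild type arrays, with or without treatment. The group means were 525 ± 29.9 (SD, n = 3) in untreated wild type, 600.2 ± 51 (SD, n = 3) in treated wild type, 366 ± 56.2 (SD, n = 4) in untreated R6/2 and 415 ± 14.4 (SD, n = 3) in treated R6/2 brain. Its log2 change was -0.53 ± 0.12 in untreated mice (limma, adjusted p = 0.0176) and -0.53 ± 0.13 in treated mice (adjusted p = 0.0917). Averaged over treatment it was -0.53 ± 0.09 (adjusted p = 0.00287), a call that held in all 13 single omissions (adjusted p from 0.00071 to 0.012) and without untreated R6/2 arrays 2 and 3 (adjusted p = 0.0041). In untreated mice alone the call was lost without wild type array 2 or 3 (adjusted p up to 0.0776). A second Tuba4a probe set was below the filter.

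Tubb4a (101419_at), the beta-tubulin that is abundant in myelinating oligodendrocytes as well as neurons, read 2255, 1985 and 2031 on the untreated wild type arrays, 2012, 2098 and 1933 on the treated wild type arrays, 1784, 1556, 1136 and 1680.1 on the untreated R6/2 arrays and 1798, 1952 and 1948 on the treated R6/2 arrays. All 4 untreated R6/2 arrays were below every other array. Group means were 2090.4 ± 144 (SD, n = 3) in untreated wild type, 2014 ± 82.9 (SD, n = 3) in treated wild type, 1539 ± 284 (SD, n = 4) in untreated R6/2 and 1899.6 ± 87.8 (SD, n = 3) in treated R6/2 brain. The log2 change was -0.46 ± 0.13 in untreated mice (limma, adjusted p = 0.0399) and -0.08 ± 0.14 in treated mice (adjusted p = 0.959). The call in untreated mice was lost in 8 of 13 single omissions, those of untreated wild type arrays 1, 2 and 3, treated wild type arrays 1 and 2, untreated R6/2 array 2 and treated R6/2 arrays 1 and 3 (log2 change from -0.54 to -0.32, adjusted p up to 0.123). Without untreated R6/2 arrays 2 and 3 the change was -0.27 (adjusted p = 0.139). The call was also lost with no filter (adjusted p = 0.0851), quantile normalization (adjusted p = 0.0638) and only the arrays compared (adjusted p = 0.115). Some oligodendrocyte markers were also lower in untreated R6/2 brain. Of 7 listed, 6 had a probe set and 5 passed the filter, and 3 of those fell, beside 6.41% of all probe sets tested. Their summed signal ranged from 3523 to 4063 in untreated wild type, 3621 to 4075 in treated wild type, 2101 to 2680 in untreated R6/2 and 2358 to 3306 in treated R6/2 brain, and no marker was at 0. In treated R6/2 brain the summed signal was below that of every wild type array. For Tubb4a the treated genotypes overlapped through treated wild type array 3, at 1933. The part of these markers in the Tubb4a result was not tested.

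Of the 14 tubulin probe sets that passed the filter, those 2 fell in untreated R6/2 brain and none rose, beside 6.41% and 5.49% of all probe sets tested, with a median log2 change of -0.13 against 0.04. In treated mice 1 of the 14 was above 0 (7.14%, beside 56.1% of all), with a median of -0.06 against 0.03, and none passed the threshold. Both probe sets of Tubb3, the neuronal beta-tubulin, were below 0 in both comparisons: -0.17 ± 0.10 and -0.29 ± 0.18 in untreated mice and -0.18 ± 0.10 and -0.32 ± 0.19 in treated mice. The R6/2 values of both lay below the wild type values in treated mice. Tubulin coding sequences are alike, and probe sets ending in _f_at, those of Tubb3 among them, are marked by the array's maker as matching a family of similar sequences, so which gene they read is uncertain.

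Probe sets of Tuba1c and Tubb2a were also of that kind. Tuba1c (101543_f_at), an alpha-tubulin, read 2836, 3202 and 3484 on the untreated wild type arrays, 3315, 3156 and 3815 on the treated wild type arrays, 2907, 3609.5, 3659.8 and 3162 on the untreated R6/2 arrays and 3403, 3932 and 2937 on the treated R6/2 arrays. These overlapped between all groups, with a log2 difference of 0.07 ± 0.13 between untreated genotypes (limma, adjusted p = 0.741). Tubb2a (94835_f_at), a beta-tubulin of neurons, read 1905, 1889 and 1889 on the untreated wild type arrays, 2035, 1808 and 1928 on the treated wild type arrays, 1857, 2164, 2676 and 1776 on the untreated R6/2 arrays and 1769, 2120.0 and 1704 on the treated R6/2 arrays. Untreated R6/2 array 3 was the highest, and the log2 difference between untreated genotypes was 0.14 ± 0.13 (adjusted p = 0.491). The gamma-tubulin group, which nucleates microtubules, had 4 probe sets and no call. Tubg1 (99924_at) read 147, 166 and 186 on the untreated wild type arrays, 163, 159 and 208 on the treated wild type arrays, 143, 117, 89.5 and 165 on the untreated R6/2 arrays and 146, 113 and 139 on the treated R6/2 arrays. Its log2 difference was -0.40 ± 0.19 in untreated mice (adjusted p = 0.171) and -0.41 ± 0.20 in treated mice (adjusted p = 0.59), and the untreated value was -0.11 without untreated R6/2 arrays 2 and 3.

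Map2, the dendritic microtubule-associated protein, was lower in untreated R6/2 than in untreated wild type brain. Its probe set (97760_at) read 166, 168 and 205 on the untreated wild type arrays, 85, 149.9 and 118 on the treated wild type arrays, 85.5, 106, 73.1 and 137 on the untreated R6/2 arrays and 132, 123 and 124 on the treated R6/2 arrays. The untreated wild type arrays were above all 10 others. Group means were 179.7 ± 22 (SD, n = 3) in untreated wild type, 118 ± 32.5 (SD, n = 3) in treated wild type, 100.3 ± 27.8 (SD, n = 4) in untreated R6/2 and 126 ± 4.83 (SD, n = 3) in treated R6/2 brain. The log2 change was -0.87 ± 0.21 in untreated mice (limma, adjusted p = 0.0207) and 0.13 ± 0.23 in treated mice (adjusted p = 0.959), and treatment of wild type mice gave -0.64 ± 0.23 (adjusted p = 0.369). The untreated call was lost without untreated wild type array 2 or 3 (adjusted p up to 0.0925), and without untreated R6/2 arrays 2 and 3 the change was -0.73 (adjusted p = 0.117). It was lost with no filter too (adjusted p = 0.0564).

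No probe set of Mapt, which encodes tau, passed the threshold, and all 3 had values above 0 in untreated mice. Probe set 102431_at read 701, 709 and 747 on the untreated wild type arrays, 799.5, 727 and 678 on the treated wild type arrays, 699.5, 1069.8, 1516 and 776 on the untreated R6/2 arrays and 744, 829 and 709.6 on the treated R6/2 arrays, so that arrays 2 and 3 of untreated R6/2 stood above the rest and arrays 1 and 4 lay close to wild type. Probe set 102742_g_at read 395, 400.4 and 379 on the untreated wild type arrays, 429, 428 and 466 on the treated wild type arrays, 411, 529.5, 637 and 456 on the untreated R6/2 arrays and 366, 444 and 388 on the treated R6/2 arrays. Probe set 102743_at read 558, 482 and 525 on the untreated wild type arrays, 560.5, 505 and 449.8 on the treated wild type arrays, 494, 619, 660.0 and 567 on the untreated R6/2 arrays and 517, 537 and 450.1 on the treated R6/2 arrays. Arrays 2 and 3 of untreated R6/2 were again the highest of all 13 for both. The log2 differences between untreated genotypes were 0.43 ± 0.20 (limma, adjusted p = 0.16), 0.36 ± 0.14 (adjusted p = 0.0955) and 0.16 ± 0.12 (adjusted p = 0.404), and without those arrays they were 0.04, 0.14 and 0.02.

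Of the 6 stathmin probe sets, 1 of Stmn2, a stathmin of growing neurites, rose in untreated R6/2 brain. It (95670_at) read 656, 627 and 617 on the untreated wild type arrays, 808, 851 and 802 on the treated wild type arrays, 852, 968, 1175 and 805 on the untreated R6/2 arrays and 723, 888 and 825 on the treated R6/2 arrays. The untreated wild type arrays were the lowest of all, below both the R6/2 arrays and the treated wild type arrays. Group means were 633 ± 19.9 (SD, n = 3) in untreated wild type, 820.2 ± 26.5 (SD, n = 3) in treated wild type, 950.0 ± 165 (SD, n = 4) in untreated R6/2 and 812 ± 83.2 (SD, n = 3) in treated R6/2 brain. The log2 change was 0.57 ± 0.13 in untreated mice (limma, adjusted p = 0.0152) and -0.02 ± 0.13 in treated mice (adjusted p = 0.992), with 0.37 ± 0.13 for the treatment in wild type mice (adjusted p = 0.38). The call was lost without untreated wild type array 2 or 3 (adjusted p up to 0.064). Without untreated R6/2 arrays 2 and 3 the change was 0.39 (adjusted p = 0.072). A second Stmn2 probe set (95669_g_at), at 1004 ± 42 (SD, n = 3) in untreated wild type and 1112 ± 99.2 (SD, n = 4) in untreated R6/2 brain, gave 0.14 ± 0.10 (adjusted p = 0.369).

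Stmn4, a neuronal stathmin, was lower in R6/2 brain when both treatments were averaged. Its probe set (98486_at) read 364, 482 and 485 on the untreated wild type arrays, 541, 396 and 559.9 on the treated wild type arrays, 338, 379, 392 and 357 on the untreated R6/2 arrays and 326, 376 and 305 on the treated R6/2 arrays. In untreated mice the groups overlapped, and in treated mice all R6/2 arrays were below all wild type arrays. The averaged log2 change was -0.41 ± 0.11 (limma, adjusted p = 0.0322), from -0.26 ± 0.15 in untreated mice (adjusted p = 0.233) and -0.56 ± 0.16 in treated mice (adjusted p = 0.148). The averaged call was kept in 6 of 13 single omissions and lost without untreated wild type arrays 2 or 3, treated wild type arrays 1 or 3, untreated R6/2 array 2 or treated R6/2 arrays 1 or 3 (adjusted p up to 0.0907). It was also lost with no filter on low signal (adjusted p = 0.0592), and kept without untreated R6/2 arrays 2 and 3 (adjusted p = 0.0379). Stmn1, the widely expressed founding member, read 1982, 2272 and 2322 on the untreated wild type arrays, 2234, 2154 and 2094 on the treated wild type arrays, 1973, 2099.9, 2318 and 2139 on the untreated R6/2 arrays and 1986, 2126 and 1982 on the treated R6/2 arrays (97909_at). The groups overlapped, with a log2 difference of -0.04 ± 0.09 in untreated mice (adjusted p = 0.812).

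The kinesins gave 3 of the 6 decreases. The kinesin group held 15 probe sets that passed the filter, that of the adaptor Kifap3 among them. Of these, 3 fell and none rose in untreated mice, beside 6.41% and 5.49% of all probe sets tested. There 4 of the 15, Kifap3 among them, were above 0 (26.7%, beside 54.3% of all), with a median log2 change of -0.26 against 0.04. In treated mice 8 were above 0 (53.3%, beside 56.1% of all), with a median of 0.05 against 0.03. Kif5a, a neuronal heavy chain of conventional kinesin, showed the largest change among the members in untreated mice. Its probe set (96583_s_at) read 557, 598 and 492 on the untreated wild type arrays, 204, 386 and 291 on the treated wild type arrays, 283, 177, 88.2 and 342 on the untreated R6/2 arrays and 315, 323 and 384 on the treated R6/2 arrays. The untreated wild type arrays were above all 10 others, and untreated R6/2 array 3 was the lowest. Group means were 549 ± 53.6 (SD, n = 3) in untreated wild type, 294 ± 91 (SD, n = 3) in treated wild type, 222 ± 113 (SD, n = 4) in untreated R6/2 and 340.4 ± 37.8 (SD, n = 3) in treated R6/2 brain. The log2 change between genotypes was -1.47 ± 0.35 in untreated mice (limma, adjusted p = 0.0184) and 0.26 ± 0.37 in treated mice (adjusted p = 0.949). The difference between these, the interaction, was 1.73 ± 0.51 (adjusted p = 0.305) and did not pass the threshold. The treatment itself gave 0.78 ± 0.35 in R6/2 mice (adjusted p = 0.277) and -0.95 ± 0.37 in wild type mice (adjusted p = 0.415). The untreated call was lost without untreated wild type array 1, 2 or 3 (adjusted p up to 0.0743), and without untreated R6/2 arrays 2 and 3 the change was -0.82 (adjusted p = 0.0699). With no filter the adjusted p was 0.0665. A second Kif5a probe set (98827_i_at) gave -0.57 ± 0.42 in untreated mice (adjusted p = 0.376) and 0.71 ± 0.45 in treated mice (adjusted p = 0.744).

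Kif5c, another neuronal heavy chain of the same motor, read 238, 146 and 216 on the untreated wild type arrays, 89.7, 182 and 143 on the treated wild type arrays, 101, 90.1, 59.3 and 168 on the untreated R6/2 arrays and 132, 121 and 111 on the treated R6/2 arrays (92433_at). The untreated groups overlapped, since untreated R6/2 array 4 was above untreated wild type array 2. Group means were 199.8 ± 48.2 (SD, n = 3) in untreated wild type, 138 ± 46.2 (SD, n = 3) in treated wild type, 105 ± 45.7 (SD, n = 4) in untreated R6/2 and 121 ± 10.5 (SD, n = 3) in treated R6/2 brain. Its log2 change was -1.002 ± 0.30 in untreated mice (limma, adjusted p = 0.0445) and -0.13 ± 0.32 in treated mice (adjusted p = 0.974). This call was kept in only 4 of 13 single omissions, those of untreated R6/2 arrays 1 and 4 and treated wild type arrays 1 and 2, and the adjusted p reached 0.139 in the other omissions. Without untreated R6/2 arrays 2 and 3 the change was -0.58 (adjusted p = 0.305). The call was also lost with no filter (adjusted p = 0.114), with array weights (adjusted p = 0.0543) and with only the arrays compared (adjusted p = 0.0911). Kif5b, the widely expressed heavy chain, differed by -0.17 ± 0.18 (adjusted p = 0.552).

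Kif1a, the kinesin-3 motor that carries synaptic vesicle precursors, read 439, 340.4 and 377 on the untreated wild type arrays, 184, 377 and 304 on the treated wild type arrays, 229.9, 199, 142 and 299 on the untreated R6/2 arrays and 346, 375 and 326 on the treated R6/2 arrays (92890_at). In untreated mice the genotypes did not overlap, and in treated mice they did. Group means were 385 ± 49.6 (SD, n = 3) in untreated wild type, 288 ± 97.6 (SD, n = 3) in treated wild type, 218 ± 65.2 (SD, n = 4) in untreated R6/2 and 349 ± 24.6 (SD, n = 3) in treated R6/2 brain. The log2 change was -0.87 ± 0.24 in untreated mice (limma, adjusted p = 0.0353) and 0.33 ± 0.26 in treated mice (adjusted p = 0.818), with an interaction of 1.20 ± 0.35 (adjusted p = 0.305). The treatment gave 0.73 ± 0.24 in R6/2 mice (adjusted p = 0.247). The untreated call was lost without untreated wild type array 1, 2 or 3 or untreated R6/2 array 2 or 3 (log2 change from -1.04 to -0.68, adjusted p up to 0.11), and without both of the latter the change was -0.55 (adjusted p = 0.243). With no filter its adjusted p was 0.091. Its paralog Kif1b, named after its values were seen, read 214, 189 and 184 on untreated wild type and 104, 90.6, 40.1 and 139 on untreated R6/2 arrays, with a log2 change of -1.20 ± 0.39 that missed the threshold (adjusted p = 0.0584) and was -0.70 without untreated R6/2 arrays 2 and 3.

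Beside the kinesins, neuronal markers were examined: of 8 listed, 6 had a probe set and 2 of these fell in untreated R6/2 brain. Their summed signal ranged from 9266 to 9763 in untreated wild type, 8614 to 9326 in treated wild type, 7452 to 8376 in untreated R6/2 and 8010 to 8778 in treated R6/2 brain, with no marker at 0. Treated wild type array 1, the lowest wild type array for Kif5a, Kif5c, Kif1a and Map2, had the highest actin 3′ to 5′ ratio, 1.75. The other arrays with control values of their own had 1.26 to 1.54. For the control Gapdh its ratio, 0.836, was not the highest, as treated wild type array 3 had 0.845. The part of the neuronal markers or of these ratios in the kinesin values was not tested. Of the other lists, 2 of 6 tested astrocyte markers and 1 of 3 blood markers fell and 1 of 8 tested microglial markers rose. None of 3 choroid plexus markers was called. Of all probe sets tested, 6.41% were lower and 5.49% higher in that comparison of untreated mice.

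**Figure D3:**
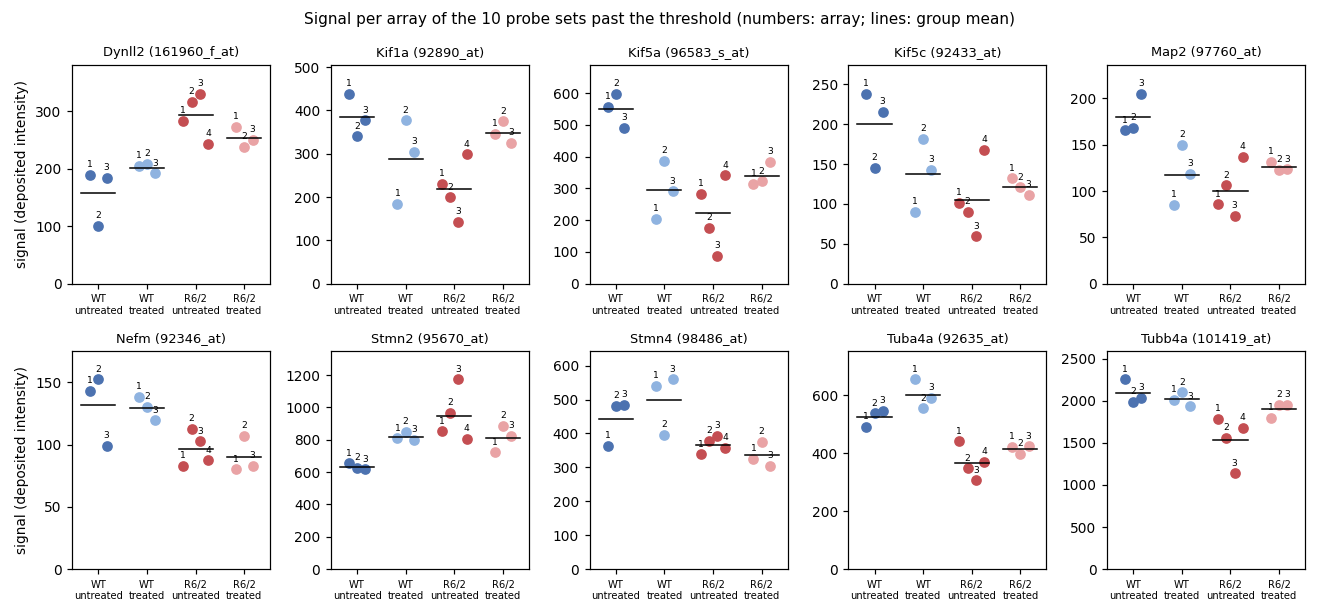
Deposited signal (arbitrary units, axes from 0) on each of the 13 arrays for the 10 member probe sets called between genotypes in untreated mice or averaged over treatment. Points are arrays, marked with their number in the group, and lines are group means; array 3 of untreated R6/2 is the lowest point for Kif5a, Kif5c, Kif1a, Map2, Tuba4a and Tubb4a.

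The kinesin light chains bind cargo to the heavy chains, and none of their 4 probe sets passed the threshold. Klc1 (93565_at) read 982, 959 and 944 on the untreated wild type arrays, 987, 1022 and 1070.2 on the treated wild type arrays, 1094, 1046, 837 and 1065 on the untreated R6/2 arrays and 1072, 1206 and 1151 on the treated R6/2 arrays. Untreated R6/2 array 3 was the lowest, and the log2 difference between untreated genotypes was 0.06 ± 0.11 (limma, adjusted p = 0.716). The Klc1 probe sets 97984_i_at and 97985_f_at gave -0.76 ± 0.32 (adjusted p = 0.131) and -0.39 ± 0.16 (adjusted p = 0.124). The 3 Klc1 probe sets thus gave values on both sides of 0. Kifap3, the kinesin-2 adaptor, read 586, 657 and 631 on the untreated wild type arrays, 671, 625 and 582 on the treated wild type arrays, 631, 867, 1092 and 683 on the untreated R6/2 arrays and 572, 728 and 655 on the treated R6/2 arrays (100113_s_at). Untreated R6/2 arrays 2 and 3 were the highest, and the log2 difference between untreated genotypes was 0.36 ± 0.16 (adjusted p = 0.152) and 0.07 without those arrays.

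For the motor running the other way, no heavy or intermediate chain passed the threshold. The heavy chain Dync1h1 gave a log2 difference of -0.04 ± 0.14 between untreated genotypes (limma, adjusted p = 0.87). The intermediate chain Dync1i1 (103809_r_at) read 652, 724 and 773 on the untreated wild type arrays, 715, 729.8 and 881 on the treated wild type arrays, 849.8, 713, 764 and 834 on the untreated R6/2 arrays and 862, 753 and 847 on the treated R6/2 arrays, with a log2 difference of 0.14 ± 0.11 (adjusted p = 0.421). The intermediate chain Dync1i2 (100603_at) read 146, 123 and 117 on untreated wild type and 158, 222, 267 and 149 on untreated R6/2 arrays. These did not overlap, and the log2 change of 0.59 ± 0.19 missed the threshold (adjusted p = 0.0528) and was 0.26 without untreated R6/2 arrays 2 and 3.

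Of the 5 dynein light chain probe sets, 1 of Dynll2 rose and none fell. Dynll1 (96298_f_at), another small light chain, read 1561, 1972 and 1823 on the untreated wild type arrays, 1789.9, 1793 and 2358 on the treated wild type arrays, 1641, 1951, 2909 and 1846 on the untreated R6/2 arrays and 1526, 1845 and 1488 on the treated R6/2 arrays, with a log2 difference of 0.20 ± 0.17 (limma, adjusted p = 0.47) between untreated genotypes. Dynll2, a small dimer that is also a subunit of myosin V, gave 2 different readings. Probe set 161960_f_at read 189, 101 and 184 on the untreated wild type arrays, 205, 209 and 192 on the treated wild type arrays, 283, 316, 330.5 and 244 on the untreated R6/2 arrays and 273, 238 and 250.0 on the treated R6/2 arrays. All R6/2 arrays were above all wild type arrays. Its log2 change was 0.94 ± 0.19 in untreated mice (adjusted p = 0.0105), 0.33 ± 0.20 in treated mice (adjusted p = 0.734) and 0.63 ± 0.14 averaged over treatment (adjusted p = 0.0135). Both calls held in all 13 single omissions, with adjusted p up to 0.0356 and 0.0395. Without untreated R6/2 arrays 2 and 3 the untreated change was 0.79 (adjusted p = 0.0812) and the averaged change 0.56 (adjusted p = 0.0449). The second Dynll2 probe set, 101929_at, was not called: it read 1293, 1289 and 1229 on untreated wild type and 1454, 1185, 1175 and 1392 on untreated R6/2 arrays, a log2 difference of 0.03 ± 0.10 (adjusted p = 0.877). The call for Dynll2 thus rested on the _f_at probe set alone.

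Dynactin links dynein to its cargo, and none of its 6 probe sets passed the threshold. Dctn1, the large p150Glued subunit, read 778, 742 and 765 on the untreated wild type arrays, 614, 651 and 682 on the treated wild type arrays, 636, 495, 309 and 668 on the untreated R6/2 arrays and 614, 732 and 632 on the treated R6/2 arrays (101367_at). In untreated mice the genotypes did not overlap, and untreated R6/2 array 3 stood far below the rest. The log2 change was -0.59 ± 0.20 (limma, adjusted p = 0.0663), and -0.23 without untreated R6/2 arrays 2 and 3. For Dctn2, which encodes dynamitin, probe set 94299_at gave -0.67 ± 0.23 (adjusted p = 0.0662) and 94300_f_at gave 0.02 ± 0.14 (adjusted p = 0.926).

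Of the neurofilament chains, the medium chain Nefm was lower in R6/2 brain when both treatments were averaged. Nefm (92346_at) read 143, 153 and 99 on the untreated wild type arrays, 138, 130.4 and 119.6 on the treated wild type arrays, 82.8, 113, 103 and 87.3 on the untreated R6/2 arrays and 80.2, 107 and 83.1 on the treated R6/2 arrays. In treated mice all R6/2 arrays were below all wild type arrays, and in untreated mice the low wild type array 3 overlapped with R6/2. The averaged log2 change was -0.48 ± 0.13 (limma, adjusted p = 0.0329), with -0.44 ± 0.17 in untreated mice (adjusted p = 0.104) and -0.53 ± 0.18 in treated mice (adjusted p = 0.307). That call was kept in 6 of 13 single omissions and lost without untreated wild type arrays 1 or 2, treated wild type arrays 1, 2 or 3, or treated R6/2 arrays 1 or 3 (adjusted p up to 0.0941). With no filter it was lost too (adjusted p = 0.0633), and without untreated R6/2 arrays 2 and 3 it was kept (adjusted p = 0.0221). The light chain Nefl (103575_at) read 262, 96.5 and 82.7 on the untreated wild type arrays, 214, 239.9 and 257 on the treated wild type arrays, 142, 100.5, 250.1 and 99.8 on the untreated R6/2 arrays and 174, 190.2 and 162 on the treated R6/2 arrays. Untreated arrays of both genotypes were widely spread, and the log2 difference between them was 0.10 ± 0.35 (adjusted p = 0.87). In treated mice all R6/2 arrays were below all wild type arrays for Nefl too, with a log2 difference of -0.44 that did not pass the threshold. The heavy chain Nefh (103234_at) read 214, 223 and 245 on the untreated wild type arrays, 250.0, 262 and 268 on the treated wild type arrays, 212, 261, 207 and 250.5 on the untreated R6/2 arrays and 204, 236 and 213 on the treated R6/2 arrays. In treated mice the genotypes did not overlap, and the log2 difference was 0.03 ± 0.12 in untreated and -0.26 ± 0.13 in treated mice (adjusted p = 0.894 and 0.574).

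Across both genotype comparisons, 4 of the 64 members (6.25%) differed when averaged over treatment, beside 6.61% of all probe sets tested. Tuba4a, Stmn4 and Nefm were lower (4.69%, beside 4.04% of all) and Dynll2 was higher (1.56%, beside 2.58%). Of these, Tuba4a and Dynll2 held in all single omissions. The count was 2 without untreated wild type array 2, treated wild type array 1 or 3, or treated R6/2 array 1 or 3. It was 7 without untreated R6/2 array 4. Of all 7453 probe sets, between 263 and 431 were called in the former omissions and 675 in the last. In treated mice alone no member passed the threshold, beside 0.792% of all probe sets, and at an unadjusted p under 0.05 limma gave 3 members (4.69%, beside 9.19%). Tuba4a was called there without untreated R6/2 array 1 (adjusted p = 0.0427) or array 3 (adjusted p = 0.03), which are in neither group but enter the shared variance.

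**Figure D4:**
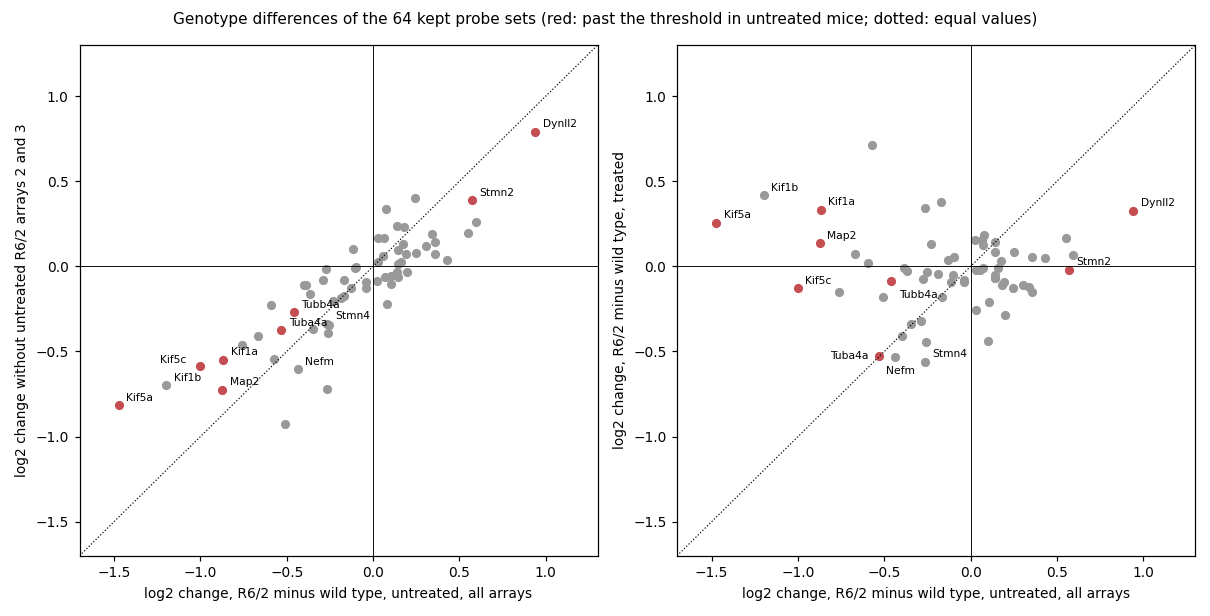
Log2 change between genotypes in untreated mice with all arrays (x) against the same change without untreated R6/2 arrays 2 and 3 (left, y) and against the change in treated mice (right, y), for the 64 member probe sets. Red points passed the threshold in untreated mice, dotted lines mark equal values; Kif5a moves from -1.47 to -0.82 on the left and to 0.26 on the right, and Tuba4a stays at -0.53 on the right.

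Groups could also be compared by whether their arrays overlapped. In untreated mice 17 of the 64 members (26.6%) had genotypes that did not overlap, beside 26.2% of all probe sets tested. In treated mice these were 15 (23.4%, beside 16.8%), Tuba4a, Stmn4, Nefm and both Tubb3 probe sets among them. The triple treatment separated 6 members in R6/2 mice (9.38%, beside 10.6%) and 20 in wild type mice (31.2%, beside 21.8%), in both directions in each genotype. Smaller groups separate more readily, and untreated R6/2 is the largest group. Each count therefore compares with its own background share and not with the other counts.

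With all arrays the treatment gave no call among the members or among all probe sets. Over all probe sets that count depended on the setting: without untreated R6/2 array 1 it was 116 for the treatment in R6/2 mice and 43 averaged over genotype, with no member among them. With array weights it was 120 in wild type mice, with 1 member, Stmn2 (adjusted p = 0.049), and 17 averaged over genotype, with none. In R6/2 mice 0 of 64 members passed, beside 0% of all probe sets, and 8 members had an unadjusted p under 0.05 (12.5%, beside 16.9% of all). In wild type mice the counts were again 0 and 8 (12.5%, beside 10.3%), and averaged over genotype 0 and 8 (12.5%, beside 12.6%). The interaction of genotype and treatment gave 0 calls and 9 members with an unadjusted p under 0.05 (14.1%, beside 13.5%). The smallest adjusted p among members was 0.247 for the treatment in R6/2 mice, 0.369 in wild type mice, 0.267 averaged and 0.305 for the interaction. For treatment in R6/2 mice, the log2 values of Kif5a, Kif1a and Tubb4a were 0.78 ± 0.35, 0.73 ± 0.24 and 0.32 ± 0.13, short of the threshold. That of Kif5a was 0.12 without untreated R6/2 arrays 2 and 3. All of these genes were named because they were lower on the untreated R6/2 than on the untreated wild type arrays. The untreated R6/2 arrays are also the baseline here, so the values cannot show a return towards wild type. Of the 64 members 36 were above 0 (56.2%, beside 52.4% of all), and the lowest value was that of Kif3a, -0.56. In wild type mice the values of Kif5a, Kif1b and Map2 were -0.95 ± 0.37, -1.11 ± 0.42 and -0.64 ± 0.23, again short of the threshold. That of Kif5a was -0.71 without treated wild type array 1. These genes were named with the untreated wild type arrays on the high side of the genotype comparison. The same arrays are the baseline here, so the values cannot show an effect of the treatment. Members moved both ways in wild type mice: 37 of 64 were above 0 (57.8%, beside 52.3% of all). The highest value was that of Nefl, 0.89, also short of the threshold.

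A list of 76 other genes of microtubule dynamics, motor adaptors, tau kinases and the neuronal cytoskeleton gave 56 genes with a probe set of their own, of which 52 passed the filter. Each was read by its brightest probe set. In untreated R6/2 brain 4 of the 52 fell and 2 rose, with a median log2 change of 0.02 against 0.04 over all probe sets. These 6 were 11.5% of the 52, beside 11.9% of all probe sets tested, so the share was near the background. Cdk5, the neuronal kinase that phosphorylates tau and neurofilaments, fell by 0.88 ± 0.22 on the log2 scale (limma, adjusted p = 0.0248), and its activator p35 (Cdk5r1) fell by 1.16 ± 0.31 (adjusted p = 0.0282). Trak1, an adaptor between kinesin and mitochondria, was at 374 ± 44.9 (SD, n = 3) in untreated wild type and 272 ± 42.6 (SD, n = 4) in untreated R6/2 brain, a change of -0.47 ± 0.14 (adjusted p = 0.0445). Mark2, a kinase that releases tau and Map2 from microtubules, gave -0.36 ± 0.10 (adjusted p = 0.035). Those that rose were Marcks, a protein kinase C substrate that links actin to the membrane, from 302 ± 29.2 (SD, n = 3) to 436 ± 75 (SD, n = 4), and Mapre1, the plus-end protein EB1, with log2 changes of 0.52 ± 0.14 and 0.47 ± 0.14 (adjusted p = 0.0333 and 0.0484). None of these 6 passed without untreated R6/2 arrays 2 and 3 (adjusted p from 0.0709 to 0.303), with the same directions. Averaged over treatment, Marcks was higher and Trak1 and Mark2 lower, and no listed gene passed for the treatment or the interaction.

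The remaining 23 member probe sets were below the filter on mean signal, and none of them read above 37.5 on any array. They left 12 genes with no value used here: Dynlt1b, Dynlt3, Kif11, Kif16b, Kif20a, Kif23, Kif2c, Kif4, Kif9, Kifc1, Map1b and Tubb2a-ps2. Several are mitotic kinesins, among them Kif11, Kif20a, Kif23 and Kif4, whose known role is in dividing cells. Of the 50 genes measured, 12 had more than 1 probe set above the filter.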

How the data were processed

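RNA of brain hemispheres was read on 13 Affymetrix MG-U74Av2 arrays. The deposited values of the series table are linear signal intensities, 1 per probe set and array, made by the authors; the software, scaling and background correction are not given in the sources used here. The 66 controls were left out. By GEO's platform annotation 10833 of the other probe sets have 1 gene symbol, 396 several and 1193 none; all entered the fit, and only those with 1 could be members. Array medians (39.6 to 45.1) differed by at most 6.73% from their mean, under the tolerance of 10%, so no further normalization was applied. Values under 3.1 (the 10th percentile) were set to it, log2 was taken, and the 40% of probe sets with the lowest mean log2 signal (under 24.9) were left out. limma 3.58.1 in R 4.3.3 fitted 4 group means on all arrays, with a trended variance prior. The number of arrays limits the precision. The code was tested on simulated data.

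Values by array are given for member probe sets past the threshold in any comparison, for those of the genes named singly in the symbol rule and for the brightest probe set of each symbol stem; others were named for their role or after their values were seen. The members, the gene and marker lists and the tests were chosen with earlier results of these data known. Alternatives were no filter, an added offset of 16, quantile normalization, array weights, omission of each array or of untreated R6/2 arrays 2 and 3, and only the arrays compared. Upstream sequences came from RefSeq, whose symbols equal those of all 87 members by gene ID. The description of treated R6/2 array 1 carries the lot number of untreated R6/2 array 4; the group was taken from its title.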

Additional observations from a re-analysis of the deposited data

How the results depend on the processing

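In the untreated genotype comparison 8 of 64 members were called with all arrays, beside 887 of 7453 probe sets. With no filter these were 4 of 87, 2 higher and 2 lower, beside 512 of 12422. The calls of Kif1a, Kif5a, Kif5c, Map2 and Tubb4a were lost there, and a member not among the 8 was called lower. No member was called without untreated R6/2 arrays 2 and 3 or with only the arrays compared, beside 163 and 243 probe sets. When single arrays were left out the number of members called was between 1 and 14, beside between 157 and 1308 probe sets. The cause was not tested beyond what each omission shows. In the treated genotype comparison the number of members called was 0, beside 59 probe sets. It was 1 with no filter, with array weights and without untreated R6/2 arrays 2 and 3, beside 70, 208 and 119. Over single omissions it ranged from 0 to 1, beside 20 to 95. For the treatment in wild type mice it was 0, and 1 with array weights, beside 0 and 120. For the averaged genotype comparison it was 4, beside 493, and ranged from 2 to 7 over single omissions, beside 263 to 704. With no filter it was 3, beside 428. There Nefm and Stmn4 lost their calls, and a member not among the 4 was called lower. For the treatment in R6/2 mice, averaged over genotype, and for the interaction, it was 0 in the alternatives run. No called member reversed its direction under the alternatives run. No paired analysis was possible because the numbers in the sample titles differ between all groups.

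The signal table has no detection calls and the 3 arrays with scaled control values have no quality measure of their own. The groups hold 3 or 4 arrays, and many probe sets share probes among related genes.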
